A study of Homo sapiens with 60 samples.

Results

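Apolipoproteins are the protein coats of the particles that carry fat and cholesterol in blood. APOB forms the frame of the very low density particles that liver cells secrete, and MTTP, the microsomal triglyceride transfer protein, loads lipid onto APOB as it enters the endoplasmic reticulum. APOA1 and APOA2 are the main proteins of high density particles. The smaller exchangeable apolipoproteins move between particles, where they switch lipases on or off and bind receptors.

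The 10 genes described here, APOA1, APOA2, APOB, APOC1, APOC2, APOC3, APOE, APOH, APOM and MTTP, were chosen by name from the 60675 genes of the count table. All 10 passed the filter on low counts. Messenger RNA was sequenced from HepG2, a human liver carcinoma cell line that secretes lipoproteins, after 24 h with an extract or with vehicle. Water extracts were given at 20, 100 and 500 µg/mL. Of these, 4 were made from 1 herb (Cinnamomi Cortex, Astragali Radix, Cnidii Rhizoma or Rehmanniae Radix Preparata) and 3 were formulas of several herbs (Samul-tang, Sagunja-tang or Palmul-tang). The vehicle was dimethyl sulfoxide, at 0.1% in the sample labels and 2% in the design text of the series. The treatment labels of the extract samples name no dimethyl sulfoxide. A difference from vehicle may therefore also hold one of solvent. Each group had 3 libraries, except Palmul-tang with 1 library per dose, which gives 60 libraries in all. All groups are 1 cell line that carries no introduced change. The labels do not say whether the 3 libraries of a group were separate cultures, so the spread behind each p-value is that among libraries and may be no more than technical.

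Library totals ran from 16.5 to 34.4 M counts. Levels are given as CPM, read counts relative to library size, after scaling of the libraries by the trimmed mean of M values (TMM), and differences are log2 fold changes from 1 edgeR quasi-likelihood model over all 16167 tested genes. A gene is called where its Benjamini-Hochberg adjusted p over all tested genes is under 0.05. The dose trend of an extract is its log2 change per 5-fold step of dose, estimated within its own 9 libraries. Sample codes open with a number, here named the set. Cinnamomi Cortex shares its set with Astragali Radix, Cnidii Rhizoma with Rehmanniae Radix Preparata, and Samul-tang with Sagunja-tang, and the vehicle codes carry none of these numbers. A difference from vehicle therefore also holds any difference between sets, and a dose trend does not. The titles of all samples, vehicle included, carry the same batch name, B. In bulk RNA, fewer cells of a type and less RNA per cell cannot be told apart. Among hepatocyte markers, ALB (albumin) averaged 11775 CPM at 500 µg/mL of Cinnamomi Cortex and 10881 CPM in vehicle, and AFP (alpha-fetoprotein) 13599 and 13194 CPM in the same order. FGG (fibrinogen gamma) averaged 1096 and 2100 CPM, so these defining transcripts were present in both groups but not all at like levels.

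The genes lie in several clusters of the genome (GRCh38, GENCODE 29). APOC1, APOC2 and APOE sit together on chromosome 19, with APOE at 44905754 to 44909393, APOC1 at 44914247 to 44919349 and APOC2 at 44945982 to 44949565, all on the plus strand. APOA1 (116835751 to 116837950, minus strand) and APOC3 (116829706 to 116833072, plus strand) are neighbours on chromosome 11. The other loci are single. APOA2 spans 161222292 to 161223631 on chromosome 1, and APOB spans 21001429 to 21044073 on chromosome 2. MTTP spans 99563761 to 99623999 on chromosome 4, APOM spans 31652416 to 31658210 on chromosome 6, and APOH spans 66212033 to 66256525 on chromosome 17. Overlapping genes bear on 3 of the counts. APOC2 lies inside the same-strand readthrough gene APOC4-APOC2, and of the summed counts of both in vehicle, 14.3% to 17.7% were assigned to APOC2. APOM overlaps BAG6 and MTTP overlaps TRMT10A, both on the opposite strand. The kit kept strand, per the labels, but whether the counting used it is not given in the sources used here.

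The promoter windows of 3 genes are shown because APOM moved most with dose, APOC2 is the member whose counts are shared with another gene, and APOH was lower in several extracts. Each runs from 250 bases before to 50 bases after a RefSeq transcription start on GRCh38.p14, 5′ to 3′ on the strand of the gene. Capitals mark matches to 4 motifs searched on both strands. These were GGTCA followed after any 2 bases by GGTC, a direct repeat of the half-sites that nuclear receptors bind, CAAAGTCC, a core of sites for the liver factor HNF4, GTTAAT, a half-site of the liver factor HNF1, and TATAAA, the TATA box.
APOM, chr6:31655644-31655943, plus strand: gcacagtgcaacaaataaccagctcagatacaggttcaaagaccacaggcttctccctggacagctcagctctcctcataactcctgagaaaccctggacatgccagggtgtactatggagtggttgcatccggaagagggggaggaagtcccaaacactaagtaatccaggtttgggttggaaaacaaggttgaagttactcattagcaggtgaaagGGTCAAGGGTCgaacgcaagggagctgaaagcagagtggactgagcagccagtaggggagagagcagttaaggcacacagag
APOC2, chr19:44945801-44946100, plus strand: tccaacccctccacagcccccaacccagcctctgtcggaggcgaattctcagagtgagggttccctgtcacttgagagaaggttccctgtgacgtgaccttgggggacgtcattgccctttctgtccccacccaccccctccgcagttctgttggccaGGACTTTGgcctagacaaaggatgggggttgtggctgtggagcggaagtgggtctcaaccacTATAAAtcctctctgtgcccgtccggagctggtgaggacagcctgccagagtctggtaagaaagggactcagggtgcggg
APOH, chr17:66229366-66229665, minus strand: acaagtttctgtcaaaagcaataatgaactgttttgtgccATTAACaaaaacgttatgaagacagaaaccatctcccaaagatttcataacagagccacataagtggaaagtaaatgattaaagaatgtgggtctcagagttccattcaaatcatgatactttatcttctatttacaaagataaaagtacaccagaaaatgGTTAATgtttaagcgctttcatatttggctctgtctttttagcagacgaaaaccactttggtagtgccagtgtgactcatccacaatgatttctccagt

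The direct repeat in the APOM window begins 32 bases before the start, and 0.262% of all 35116 RefSeq windows of this length hold a match. In the APOC2 window the HNF4 core lies on the other strand at -92, which 1.2% of windows hold, and the TATA box lies at -30, which 11.5% hold. The APOH window has the HNF1 half-site at -49 and again on the other strand at -210, and 6.88% of windows hold at least 1 such match. Windows were at hand for 7 of the 10 genes, 10 windows in all. Of these windows 1 held the direct repeat, 1 the HNF4 core, 1 the HNF1 half-site and 2 the TATA box. The other TATA box match was in MTTP, at -227 on the other strand. The windows of APOA2, APOC1 and APOE held no match. A match describes letters and is no measured binding site.

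The genes differed widely in abundance. Per kilobase of exon in vehicle, APOA2 was highest at 2844 ± 212 CPM per kb, followed by APOH at 1832 ± 89.2 and APOB at 1099 ± 55.4 (SD, n = 3 each). APOA1 stood at 873 ± 113 and APOE at 337 ± 20.3 CPM per kb. APOC1 was at 158 ± 11.3 CPM per kb, APOC3 at 66.2 ± 2.39 and APOC2 at 49.4 ± 3.17, the last without the counts of the readthrough gene. APOM stood at 45.3 ± 1.60 and MTTP lowest at 10.5 ± 0.146 CPM per kb. Neighbours in this order were separated by more than their spreads except APOC2 and APOM. APOA2 ranked at percentile 99.9 of the genes with a length and MTTP at percentile 78.0.

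Cinnamomi Cortex at 500 µg/mL raised most of the exchangeable apolipoproteins and lowered APOB and APOH. Against vehicle, 7 of the 10 genes were higher and 2 lower, beside 62.7% of all tested genes called in either direction (31.1% higher and 31.6% lower). The median of the 10 genes was 0.53, against -0.02 over all genes (log2). With 62.7% of genes called, 9 calls among 10 genes say little of this group by themselves, and the values of single genes follow.

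APOM, a lipocalin that carries sphingosine-1-phosphate on high density particles, changed most. It had 163.8, 161.5 and 172.2 CPM at 500 µg/mL of Cinnamomi Cortex, against 74.5, 78.1 and 72.9 CPM in vehicle. The groups did not overlap, and the log2 change was 1.14 (SE 0.0674, adjusted p = 3.8e-20). APOM also followed dose, with 78.0, 88.2 and 87.8 CPM at 20 µg/mL and 112.8, 124.4 and 126.2 CPM at 100 µg/mL. Every library at a dose was above every library at the dose below, and the trend was 0.48 per 5-fold step (SE 0.0335, adjusted p = 1.38e-17). BAG6, which overlaps APOM on the other strand, was also higher, by 0.65 (SE 0.0477, adjusted p = 8.16e-17), and its part in the APOM counts was not tested.

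APOC1, an inhibitor of lipoprotein lipase and of particle uptake, had 293.8, 334.5 and 355.5 CPM at 500 µg/mL, against 196.5, 208.1 and 180.4 CPM in vehicle. The 3 treated libraries all lay above the vehicle libraries, and the change was 0.75 (SE 0.0933, adjusted p = 1.21e-09). At 100 µg/mL the gene averaged 236.4 ± 15.5 CPM and at 20 µg/mL 210.2 ± 18.4 CPM (SD, n = 3 each). The trend was 0.32 per step (SE 0.0466, adjusted p = 5.54e-08).

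APOE, a ligand through which remnant particles are taken up, had 1168, 1184 and 1272 CPM, against 768, 758 and 686 CPM in vehicle. All treated libraries were higher, with a change of 0.71 (SE 0.0854, adjusted p = 4.62e-10). At the lower doses APOE stayed near vehicle, at 783.6 ± 31.4 CPM with 20 µg/mL and 812.7 ± 65.8 CPM with 100 µg/mL (SD, n = 3 each), and neither dose was called.

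The high density proteins moved in the same direction. APOA2 had 4090, 4297 and 4270 CPM at 500 µg/mL, against 2868, 2723 and 2472 CPM in vehicle, a change of 0.65 (SE 0.0867, adjusted p = 6.69e-09). APOA1, the activator of the cholesterol esterifying enzyme LCAT, had 1800, 1777 and 1878 CPM, against 1335, 1337 and 1058 CPM. Neither gene's groups overlapped, and APOA1 changed by 0.55 (SE 0.0767, adjusted p = 2.16e-08). At 100 µg/mL APOA1 averaged 1191 ± 10.7 CPM and at 20 µg/mL 1245 ± 25.8 CPM (SD, n = 3 each), so its rise was seen at the top dose alone of the 3 doses run.

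APOC3, an inhibitor of triglyceride breakdown and of remnant clearance, had 75.4, 88.8 and 80.4 CPM, against 55.0, 58.9 and 58.2 CPM in vehicle. The change was 0.51 (SE 0.101, adjusted p = 2.3e-05), with no overlap between groups. APOC2, the cofactor that activates lipoprotein lipase, had 72.3, 94.1 and 69.5 CPM, against 69.4, 61.1 and 64.7 CPM. Replicate 2 was far above the other 2 libraries, and the change of 0.27 was not called (SE 0.142, adjusted p = 0.0875). Summed with APOC4-APOC2, a sum added after the data were seen, it was 0.37 (SE 0.0825, adjusted p = 1.28e-04). The dose trend of APOC2 alone was 0.24 (SE 0.0713, adjusted p = 0.00384), and without replicate 2 of the 500 µg/mL group it was 0.16 (adjusted p = 0.0698).

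APOB went the other way. It had 13815, 13570 and 13361 CPM at 500 µg/mL, against 16059, 15625 and 17213 CPM in vehicle. The groups did not overlap, and the change was -0.26 (SE 0.0572, adjusted p = 8.4e-05). Means were 15510 ± 136, 15143 ± 615 and 13582 ± 227 CPM at 20, 100 and 500 µg/mL (SD, n = 3 each), a trend of -0.10 (SE 0.0286, adjusted p = 0.00334). APOH, also called beta-2-glycoprotein I, a phospholipid-binding plasma protein, had 2050, 1995 and 1986 CPM, against 2550, 2314 and 2457 CPM in vehicle. Its treated libraries were all below vehicle, with a change of -0.28 (SE 0.0556, adjusted p = 2.18e-05).

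MTTP peaked at the middle dose. It had 58.8, 60.5 and 63.5 CPM at 20 µg/mL, 72.7, 73.1 and 71.9 CPM at 100 µg/mL and 63.9, 68.6 and 67.1 CPM at 500 µg/mL of Cinnamomi Cortex. Vehicle had 56.97, 55.61 and 56.97 CPM, below every library of the 3 doses. Against vehicle MTTP was 0.36 higher at 100 µg/mL (SE 0.0495, adjusted p = 2e-07) and 0.23 higher at 500 µg/mL (SE 0.0499, adjusted p = 6.01e-05). The call at 500 µg/mL depended on the scaling, because with library totals alone the change was -0.044 and not called (adjusted p = 0.496). TRMT10A, on the opposite strand, fell by 0.47 at 500 µg/mL (SE 0.0837, adjusted p = 7.29e-06).

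**Figure D1:**
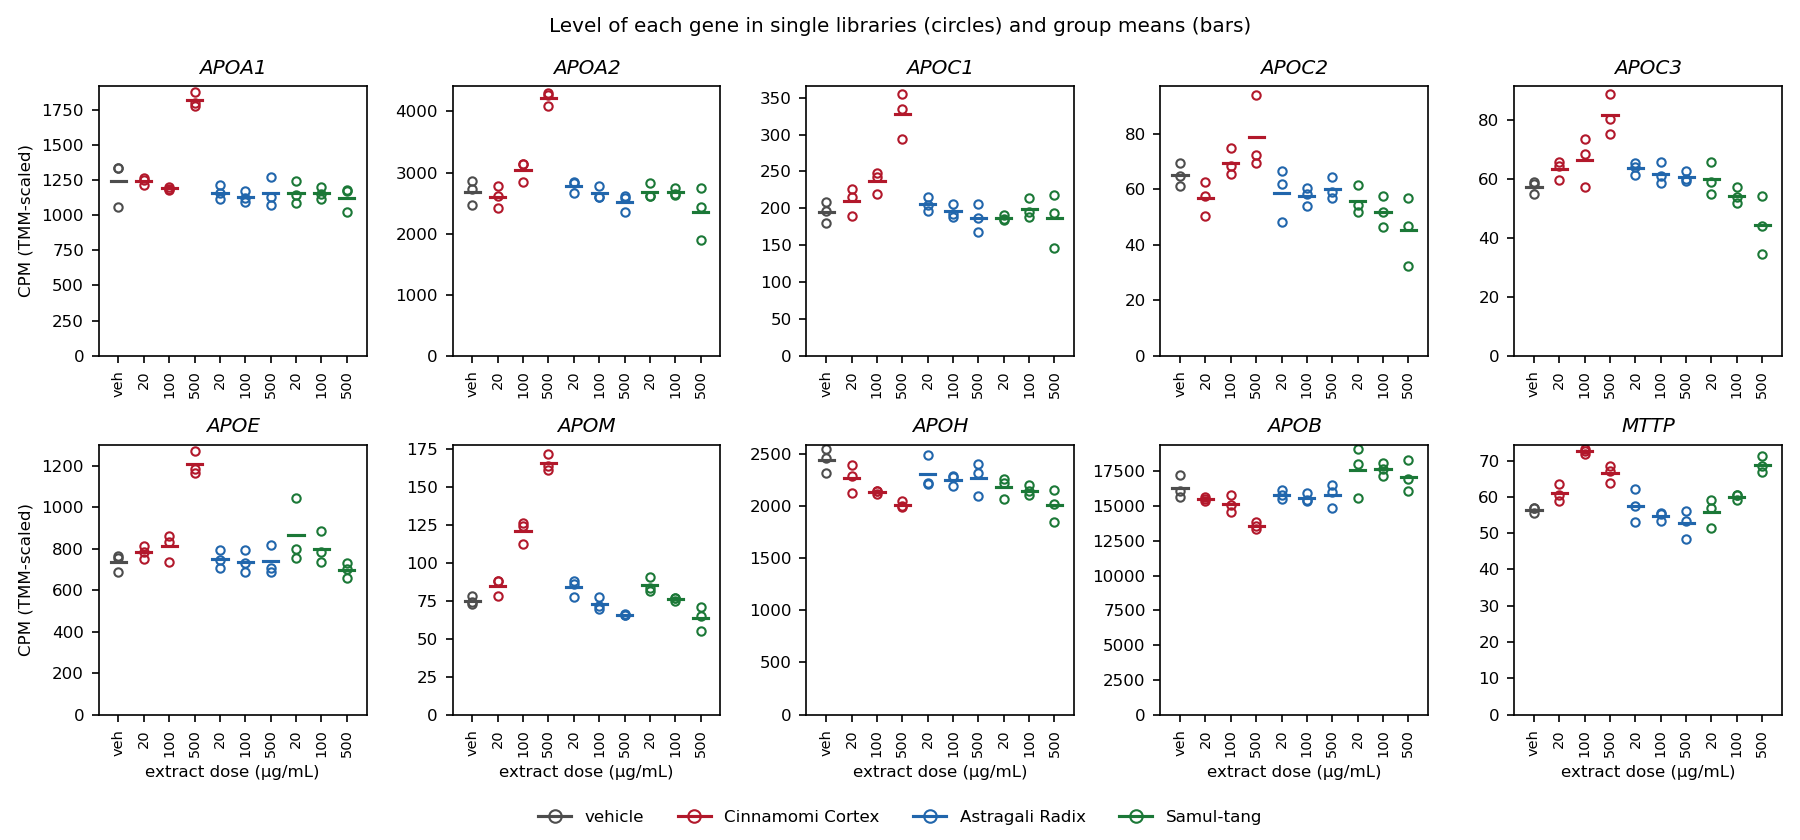
Level of each gene in CPM (vertical axes from 0) in vehicle and by dose (µg/mL) of Cinnamomi Cortex, Astragali Radix and Samul-tang. Circles are single libraries and bars group means (3 libraries each). APOM climbs at each dose of Cinnamomi Cortex, to 161.5 to 172.2 CPM at 500 µg/mL, and MTTP is highest at 100 µg/mL.

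The scale of the libraries moved with this treatment. TMM factors were 0.839, 0.834 and 0.863 at 500 µg/mL of Cinnamomi Cortex, against 1.03, 1.04 and 1.01 in vehicle. Genes of the mitochondrial genome took 21.9%, 22.3% and 19.4% of all counts, against 14.6%, 14.4% and 16.7% in vehicle. The 10 genes together took 1.96% to 2.03% of counts, against 2.41% to 2.47%. With library totals only, the median of all tested genes was -0.30 in place of -0.02, and 24.2% of called genes were higher in place of 49.6%. The same share was 24.6% in place of 51.9% at 100 µg/mL, 23.1% in place of 49.3% for the trend and 26.1% in place of 49.3% for Cinnamomi Cortex minus Astragali Radix at 500 µg/mL. It was 20.3% in place of 51.8% for Cnidii Rhizoma and 42.3% in place of 55.1% for Sagunja-tang at 500 µg/mL. Under that scaling APOM was 0.86, APOA2 0.37, APOA1 0.27 and APOB -0.54. Those calls and the calls of APOC1, APOC3, APOE and APOH stayed past the threshold with the same sign, whereas MTTP, at -0.044, lost its call but stood above the median of all genes.

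At lower doses fewer genes differed. At 100 µg/mL of Cinnamomi Cortex, APOM (0.69, adjusted p = 5.04e-11), MTTP and APOC1 (0.28, adjusted p = 0.0289) were higher and APOH was lower (-0.19, adjusted p = 0.00919), beside 19.4% of all tested genes. The APOC1 call was lost with library totals (0.20, adjusted p = 0.173) and without vehicle replicate 1 or 3 or without replicate 2 or 3 of the treated group, and that of APOH without vehicle replicate 1 or against the mean of the 20 µg/mL groups. At 20 µg/mL none of the 10 was called by edgeR, beside 7.16% of all genes, and 2 had an unadjusted p under 0.05.

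In the dose trend of Cinnamomi Cortex, 8 of the genes were called higher and 2 lower, beside 61.9% of all genes called (30.5% higher and 31.4% lower). A positive trend need not be a rise at each dose, as the values of APOA1 and MTTP above show. The trend was 0.35 per step for APOA2, 0.31 for APOE, 0.27 for APOA1 and 0.18 for APOC3, whereas that of APOH was -0.09. The call of APOH was lost without replicate 3 at 20 µg/mL, and those of APOC2 (0.10, adjusted p = 0.202) and APOC3 (0.049, adjusted p = 0.367) with library totals. The trend of MTTP was 0.06 (SE 0.0248, adjusted p = 0.0262), but with library totals alone it was -0.071 (adjusted p = 0.0235). The MTTP trend was also not called with no filter on low counts (adjusted p = 0.174) or without 1 of 4 libraries, replicate 1 or 2 at 20 µg/mL or replicate 2 or 3 at 500 µg/mL.

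Astragali Radix shares its set with Cinnamomi Cortex, and the pair compares extracts without the vehicle. At 500 µg/mL, each of the 10 genes was called for Cinnamomi Cortex minus Astragali Radix, beside 62.7% of all genes (30.9% higher and 31.8% lower). APOM averaged 165.8 ± 5.61 CPM with Cinnamomi Cortex and 66.0 ± 0.30 CPM with Astragali Radix (SD, n = 3 each), a difference of 1.33 (SE 0.0688, adjusted p = 2.36e-22). APOC1 averaged 327.9 ± 31.4 and 186.7 ± 18.6 CPM in the same order, a difference of 0.81 (SE 0.0939, adjusted p = 1.75e-10). The level was higher with Cinnamomi Cortex for 8 genes and lower for APOB and APOH. The call of APOC2 (0.39, adjusted p = 0.0167) was lost without replicate 2 of Cinnamomi Cortex (0.24, adjusted p = 0.186) or replicate 1 of Astragali Radix, and that of APOH without replicate 3 of Astragali Radix. With library totals APOC2, APOC3 (0.17) and MTTP (0.08) were not called. The difference between trends was called for 8 genes, beside 50.9% of all genes. It missed the threshold for APOC2 (0.22, adjusted p = 0.0672) and APOH (-0.077, adjusted p = 0.0973). Some alternatives called these 2, such as the sum with APOC4-APOC2 for APOC2 (0.20, adjusted p = 0.00289) and library totals for APOH (-0.21, adjusted p = 2.53e-05). APOM differed most, by 0.66 per step (SE 0.0482, adjusted p = 2.32e-16). With library totals the trend differences of APOA1 (0.15, adjusted p = 0.0551) and APOC3 (0.09, adjusted p = 0.268) were not called. For MTTP the difference was 0.13 (adjusted p = 0.00225), and it was -0.0026 with library totals. The difference of APOB, -0.094 (adjusted p = 0.0478), was near the threshold and held in 14 of 27 alternatives.

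**Figure D2:**
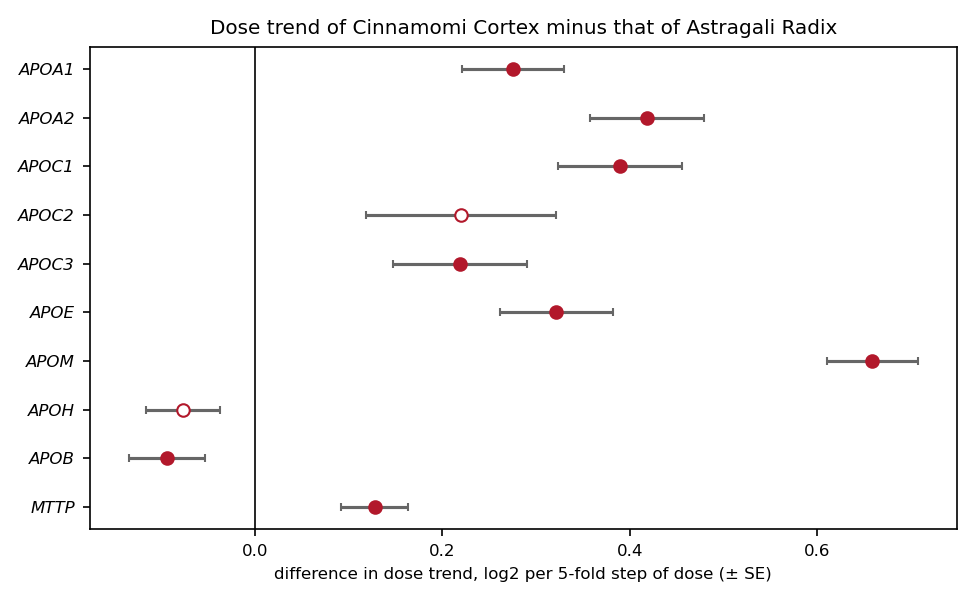
Dose trend of Cinnamomi Cortex minus that of Astragali Radix for each gene, in log2 per 5-fold step of dose with SE (1 model over 57 libraries). Filled points have an adjusted p under 0.05. APOM has the largest difference, 0.66, APOB lies below 0, and MTTP, at 0.13, changes sign with library totals.

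On its own, Astragali Radix left the group near vehicle. At 500 µg/mL no gene was called by edgeR against vehicle, beside 3.04% of all genes, and 2 had an unadjusted p under 0.05. DESeq2 called none either. Its trend called APOM alone (-0.17, SE 0.0347, adjusted p = 0.00242), beside 1.16% of all genes. APOM had 77.9, 86.0 and 88.3 CPM at 20 µg/mL, 69.8, 71.3 and 77.8 CPM at 100 µg/mL and 65.8, 65.8 and 66.3 CPM at 500 µg/mL. The libraries at 500 µg/mL lay below all libraries at the lower doses. The call held in all 18 alternatives run.

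Samul-tang at 500 µg/mL lowered 4 genes and raised MTTP, beside 13.7% of all genes called (7.44% higher and 6.24% lower). MTTP had 71.2, 68.6 and 66.8 CPM, against 56.97, 55.61 and 56.97 CPM in vehicle. The groups did not overlap, and the change was 0.29 (SE 0.0496, adjusted p = 5.72e-05). At 20 and 100 µg/mL MTTP averaged 55.9 ± 4.03 and 60.1 ± 0.783 CPM (SD, n = 3 each), and the trend was 0.15 per step (SE 0.0248, adjusted p = 4.89e-05). APOH had 2153, 2019 and 1842 CPM, against 2550, 2314 and 2457 CPM in vehicle, a change of -0.28 (SE 0.0556, adjusted p = 3.2e-04). This call held in all 16 alternatives, at -0.34 to -0.19, but the dose trend of APOH was not called.

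The 3 other genes lower with Samul-tang leaned on 1 library. APOC2 had 46.8, 56.9 and 32.4 CPM, APOC3 43.9, 54.3 and 34.4 CPM, and APOM 64.9, 71.2 and 55.4 CPM at 500 µg/mL. For each, replicate 3 was lowest, and all 3 libraries were below vehicle. The changes were -0.52 (adjusted p = 0.0118), -0.38 (adjusted p = 0.0102) and -0.24 (adjusted p = 0.0157). Without replicate 3 they were -0.33 (adjusted p = 0.178), -0.23 (adjusted p = 0.179) and -0.15 (adjusted p = 0.218). The call of APOC2 was also lost without vehicle replicate 1, and that of APOM without vehicle replicate 2. With Samul-tang and vehicle fitted alone, the adjusted p was 0.0509 for APOC3 and 0.0692 for APOM. The same library was the lowest of all 60 for APOA2, APOC1, APOC2, APOC3, APOH and APOM. Summed with the readthrough gene, APOC2 was -0.24 (adjusted p = 0.0439).

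The dose trend of Samul-tang was called for MTTP, APOM (-0.21, adjusted p = 5.14e-05), APOC3 (-0.22, adjusted p = 0.00503) and APOE (-0.15, adjusted p = 0.0161), beside 9.88% of all genes (1597 genes, but 72 with the compared groups fitted alone). APOM had 81.5, 91.0 and 83.5 CPM at 20 µg/mL, 77.0, 76.9 and 74.8 CPM at 100 µg/mL, and the values above at 500 µg/mL. Each dose lay wholly below the dose before it, and this call held in all 18 alternatives. APOE had 1045 CPM in replicate 2 at 20 µg/mL, against 755 and 798 CPM in the other 2 libraries. Without that library its trend was -0.08 (adjusted p = 0.543) and that of APOC3 -0.19 (adjusted p = 0.129). Both calls were also lost without replicate 3 at 500 µg/mL (APOE -0.14, APOC3 -0.15), and that of APOE without replicate 1 at that dose. With the compared groups fitted alone, APOM kept its call, whereas MTTP (adjusted p = 0.079), APOC3 (0.176) and APOE (0.236) did not.

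Sagunja-tang at 500 µg/mL lowered APOC3 and raised MTTP slightly, beside 12.3% of all genes (6.76% higher and 5.52% lower). APOC3 had 41.4, 46.5 and 44.0 CPM, against 55.0, 58.9 and 58.2 CPM in vehicle, a change of -0.38 (SE 0.103, adjusted p = 0.00984). Without replicate 1 of Sagunja-tang the adjusted p was 0.0597. MTTP changed by 0.17 (SE 0.0494, adjusted p = 0.02), and this call was lost when any 1 of vehicle replicates 1 and 2 or Sagunja-tang replicate 1 was left out, with library totals, with no filter or with the compared groups fitted alone. The trend of Sagunja-tang called none of the 10 by edgeR or DESeq2, beside 4.99% of all genes, and 2 had an unadjusted p under 0.05. Between Sagunja-tang and Samul-tang edgeR called no gene at 500 µg/mL (beside 0.885% of all genes) or in the trend (0.142%). Unadjusted p-values under 0.05 numbered 3 and 2, and DESeq2 called 1 and 0. The largest difference at 500 µg/mL was that of APOM, 0.25 (SE 0.069, adjusted p = 0.0595).

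Cnidii Rhizoma at 500 µg/mL raised APOC3, and lowered APOH by a small amount, beside 11.8% of all genes (6.11% higher and 5.67% lower). APOC3 had 99.7, 64.2 and 86.4 CPM, against 55.0, 58.9 and 58.2 CPM in vehicle. The libraries spread widely but all lay above vehicle, and the change was 0.53 (SE 0.101, adjusted p = 2.69e-04). Replicate 1, the highest in APOC3, also had the highest mitochondrial share of all libraries, 22.6% of counts, against 16.0% and 17.2% in replicates 2 and 3 and 14.4% to 16.7% in vehicle. Its TMM factor was 0.916, and without this library APOC3 was 0.38 (adjusted p = 0.016). CD68 (0.34) and LYZ (0.22), from the list of markers of other cell types, were also called higher in this group, and their part in the result was not tested. Against Rehmanniae Radix Preparata, which shares its set and had 61.6, 56.6 and 55.5 CPM, the difference was 0.52 (SE 0.101, adjusted p = 0.00246), the only call among the 10 genes beside 0.705% of all genes. Without replicate 1 of Cnidii Rhizoma it was 0.37 (adjusted p = 0.084), and with the pair fitted alone the adjusted p of APOC3 was 0.216. Neither edgeR nor DESeq2 called a trend for Cnidii Rhizoma (3.22% of all genes), for Rehmanniae Radix Preparata (0.674%) or for their difference (0.068%), with 3, 1 and 1 genes at an unadjusted p under 0.05.

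APOH was called lower than vehicle with several extracts. At 500 µg/mL it was -0.18 with Cnidii Rhizoma (adjusted p = 0.022) and -0.19 with Rehmanniae Radix Preparata (adjusted p = 0.0299), the only call for that extract beside 7.45% of all genes. These extracts share the vehicle libraries with all the others. Vehicle had the highest mean APOH of all groups, 2440 ± 119 CPM (SD, n = 3). Groups of 3 libraries at 20 µg/mL averaged 2181 CPM (Samul-tang) to 2363 CPM (Cnidii Rhizoma). All extracts are set against this 1 vehicle group, so a high vehicle level and lower levels with the extracts cannot be told apart. Vehicle replicate 1 held the highest APOH of all 60 libraries, 2550 CPM, and without it the changes were -0.15 (adjusted p = 0.131) and -0.16 (adjusted p = 0.166). Both calls were also lost without vehicle replicate 3. The first was lost without replicate 1 or 3 of Cnidii Rhizoma, and the second without any 1 of the 3 libraries of Rehmanniae Radix Preparata. Against the mean of the 20 µg/mL groups, APOH was -0.087 with Cnidii Rhizoma (adjusted p = 0.165) and -0.089 with Rehmanniae Radix Preparata (adjusted p = 0.283). With the compared groups fitted alone, the adjusted p-values were 0.125 and 0.0546. Neither extract had a called trend for APOH.

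**Figure D3:**
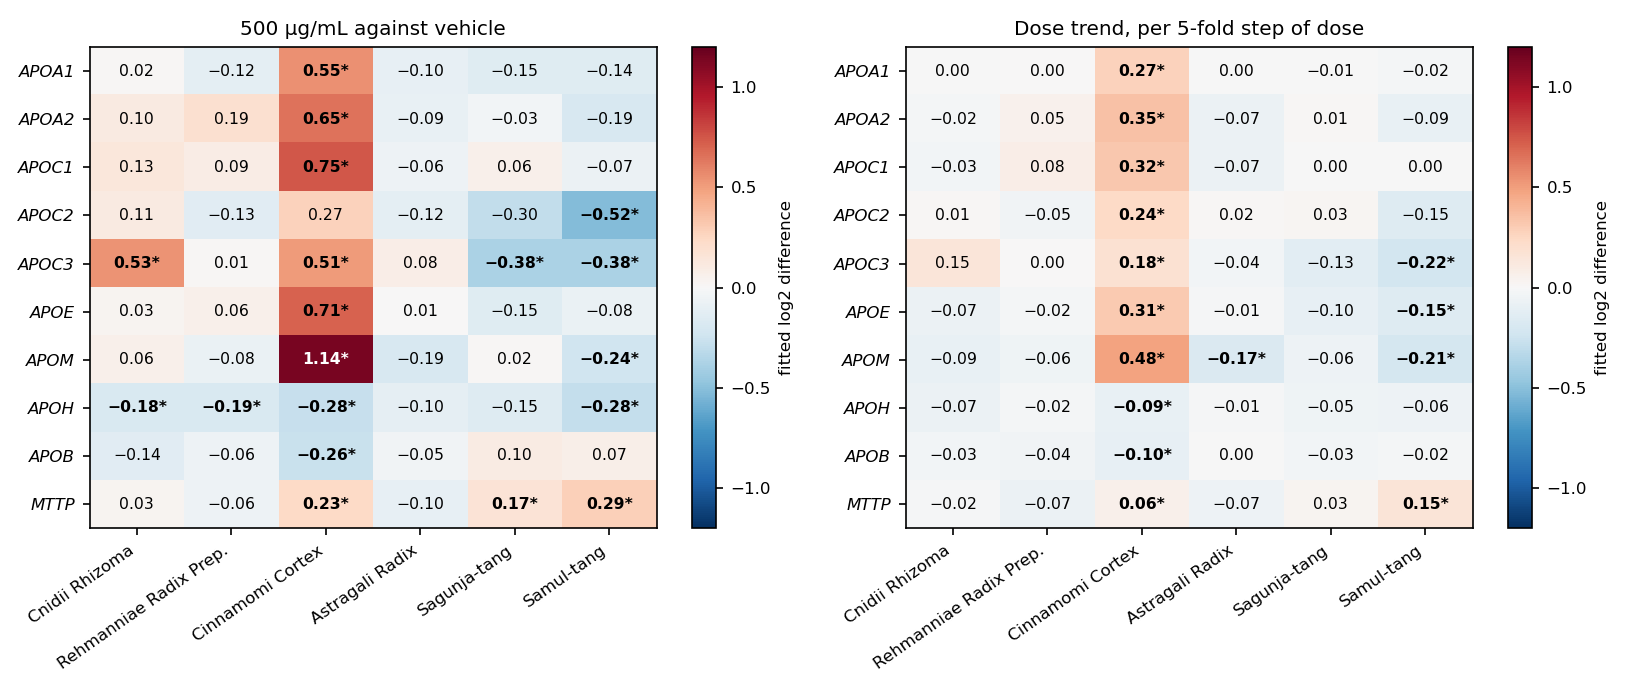
Fitted log2 difference of each gene (down the page) for 6 extracts (across), at 500 µg/mL against vehicle on the left and as the dose trend on the right. Asterisks mark an adjusted p under 0.05. Cinnamomi Cortex has the deepest colours, with APOM at 1.14 and 0.48, and MTTP, whose sign in that column turns with library totals, is higher with Samul-tang in both panels.

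At 100 µg/mL, 6 of 60 pairs of gene and extract were called, 4 of them with Cinnamomi Cortex. The others were APOB with Sagunja-tang (0.18, adjusted p = 0.0329, beside 8.85% of all genes) and APOH with Samul-tang (-0.19, adjusted p = 0.0287, beside 8.08%). No member was called with Cnidii Rhizoma, Rehmanniae Radix Preparata or Astragali Radix, beside 3.58%, 4.17% and 2.26% of all genes. At 20 µg/mL, 4 pairs were called. These were APOM with Cnidii Rhizoma (0.24, adjusted p = 0.0201, beside 6.49%) and APOE (0.23), APOM (0.18) and APOH (-0.16) with Samul-tang, beside 20.7% of all genes. With Samul-tang at 20 µg/mL and vehicle fitted alone, 142 genes were called in place of 3353, and none of these 3 members. No member was called at this dose with Rehmanniae Radix Preparata (7.18% of all genes), Astragali Radix (3.93%) or Sagunja-tang (11.4%). Each of these 6 calls outside Cinnamomi Cortex was lost when some single library was left out. Without replicate 2 of Samul-tang at 20 µg/mL the 3 calls of that group were lost, with APOE at 0.07 (adjusted p = 0.639).

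Palmul-tang had 1 library per dose and so no test. At 20, 100 and 500 µg/mL, APOB had 18110, 18672 and 16677 CPM, MTTP 60.1, 62.6 and 63.3 CPM, and APOC3 56.3, 56.6 and 45.5 CPM. APOC2 had 52.5, 48.6 and 49.2 CPM, below the vehicle libraries at 61.1 to 69.4 CPM. Past a 1.2-fold difference from the vehicle mean were APOC2 at all 3 doses and APOC3 at 500 µg/mL, all lower, beside 8.45%, 10.4% and 9% of all genes lower by that much at the 3 doses. These single libraries have no replicate check.

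The abundance of APOB, whose exons span 14828 bases, went with a measure of transcript length. For each library the median log2 ratio to vehicle of genes with at least 10000 exon bases was set beside that of genes with fewer than 2000. This long minus short value was -0.179 to -0.127 at 500 µg/mL of Cinnamomi Cortex and 0.052 to 0.255 at 500 µg/mL of Samul-tang, against -0.078 to 0.044 in vehicle. Over the 57 libraries, APOB correlated with it at r = 0.915, and at r = 0.889 over the 54 libraries outside Cinnamomi Cortex at 500 µg/mL. Several shorter genes ran the other way, with r of -0.85 for APOC3, -0.792 for APOC2, -0.715 for APOA2 and -0.705 for APOA1. APOH, also short, was at 0.151 and MTTP at 0.095, and over the 54 libraries they were at -0.041 and 0.303. Replicate 3 of Samul-tang at 500 µg/mL, low in so many members, had the highest value of all libraries, 0.255, and Cnidii Rhizoma at 500 µg/mL, high in APOC3, had -0.15 to -0.037. The measure was chosen after the data were seen, the points share libraries and scaling, and its part in these results was not tested.

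**Figure D4:**
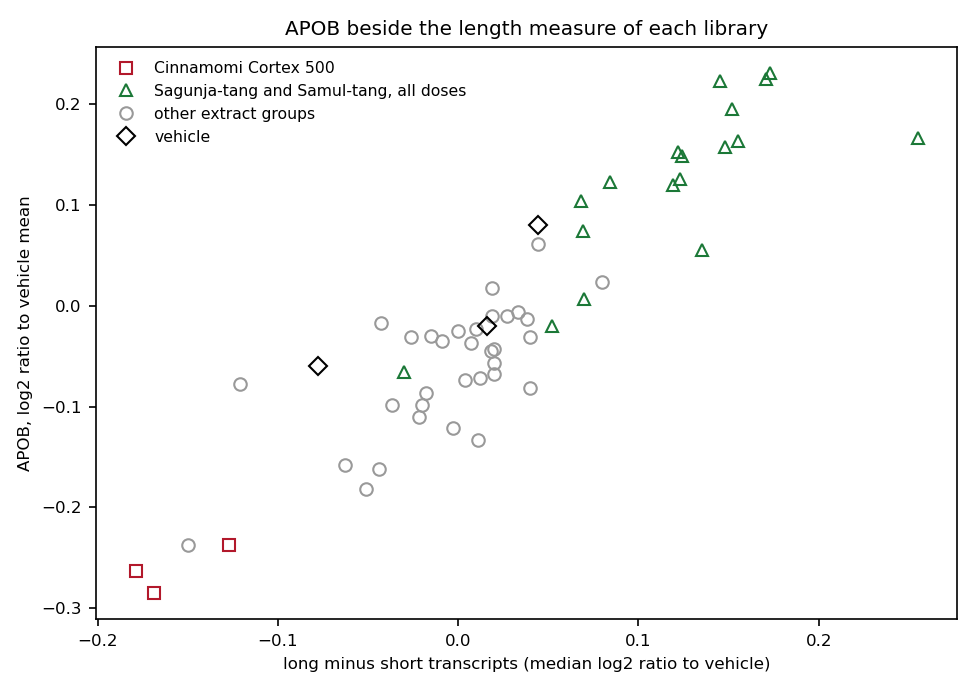
Level of APOB in each of 57 libraries (vertical, log2 ratio to the vehicle mean) beside the long minus short value of the library (horizontal, median log2 ratio of genes with long exons minus that of genes with short ones). The 3 squares of Cinnamomi Cortex at 500 µg/mL lie at the lower left, with APOB at -0.285 to -0.237, and Sagunja-tang and Samul-tang lie mostly at the upper right.

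Other genes of the pathway were counted in lists chosen by role. Among 20 other apolipoproteins and particle proteins, 15 were tested and with Cinnamomi Cortex at 500 µg/mL 9 were higher and 2 lower (median 0.35, against -0.02 over all genes), beside 62.7% of all genes called (31.1% higher and 31.6% lower). APOL2, a cytosolic apolipoprotein L, averaged 95.4 ± 4.01 CPM, against 25.1 ± 0.893 CPM in vehicle (SD, n = 3 each), and rose by 1.93 (adjusted p = 2.24e-22). APOA4, an intestinal and hepatic apolipoprotein, averaged 9.38 ± 1.23 CPM against 2.19 ± 0.281 CPM and rose by 2.09. APOL1, which circulates on high density particles, rose by 1.27, and AHSG, the plasma carrier fetuin-A, by 1.14. APOL2 was also higher at 500 µg/mL with each of the other 5 extracts, by 0.97 with Cnidii Rhizoma, 0.62 with Rehmanniae Radix Preparata and with Astragali Radix, 0.57 with Sagunja-tang and 0.65 with Samul-tang, all called against the same vehicle.

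Assembly and secretion genes split. Of 34, 33 were tested, with 19 higher and 9 lower with Cinnamomi Cortex at 500 µg/mL (median 0.18), beside the same 62.7% of all genes. HSP90B1, an endoplasmic reticulum chaperone, averaged 534 ± 3.71 CPM against 1033 ± 15.7 CPM in vehicle and fell by 0.95. DGAT1, which makes triglyceride from diglyceride, averaged 33.2 ± 1.38 CPM against 72.4 ± 0.379 CPM and fell by 1.12 (adjusted p = 1.37e-16). P4HB, the protein disulfide isomerase that is also the partner subunit of MTTP, averaged 2165 ± 81.3 CPM against 1497 ± 46.4 CPM and rose by 0.53 (adjusted p = 2.5e-15). RBM47, a cofactor of the enzyme that edits APOB messenger RNA, averaged 26.0 ± 0.952 CPM against 11.6 ± 1.05 CPM and rose by 1.16. DGAT2 was lower with Samul-tang (-0.32), Sagunja-tang (-0.33) and Rehmanniae Radix Preparata (-0.26). The chaperone CANX was higher with Samul-tang (0.26), Sagunja-tang (0.28) and Astragali Radix (0.19), all against the same vehicle.

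Of 31 receptor and clearance genes, 25 were tested, with 12 higher and 8 lower with Cinnamomi Cortex (median 0.09), again beside 62.7% of all genes. VLDLR, a lipoprotein receptor, averaged 14.4 ± 0.413 CPM against 3.28 ± 0.398 CPM and rose by 2.14. ANGPTL4, an inhibitor of lipoprotein lipase, rose by 1.96, and the fatty acid transporter CD36 fell by 1.73. ABCA1, which moves cholesterol onto APOA1, was higher with Samul-tang (0.25) and Sagunja-tang (0.18).

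Among 35 regulators of these genes, 34 were tested, with 19 higher and 9 lower at that dose of Cinnamomi Cortex (median 0.21), beside 62.7% of all genes. MLXIPL, the carbohydrate response factor ChREBP, averaged 50.2 ± 3.29 CPM with Cinnamomi Cortex against 190 ± 8.63 CPM in vehicle and fell by 1.92 (adjusted p = 3.04e-27). NR1H4, the bile acid receptor FXR, fell by 1.55, and FOXA1, a liver pioneer factor, fell by 0.96. NR0B2, the corepressor SHP, averaged 140 ± 8.32 CPM against 41.8 ± 1.48 CPM and rose by 1.74. CEBPB, an acute phase factor, was higher with 5 other extracts, by 0.96 with Cnidii Rhizoma, 0.94 with Rehmanniae Radix Preparata, 0.64 with Astragali Radix, 0.70 with Sagunja-tang and 0.79 with Samul-tang.

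**Figure D5:**
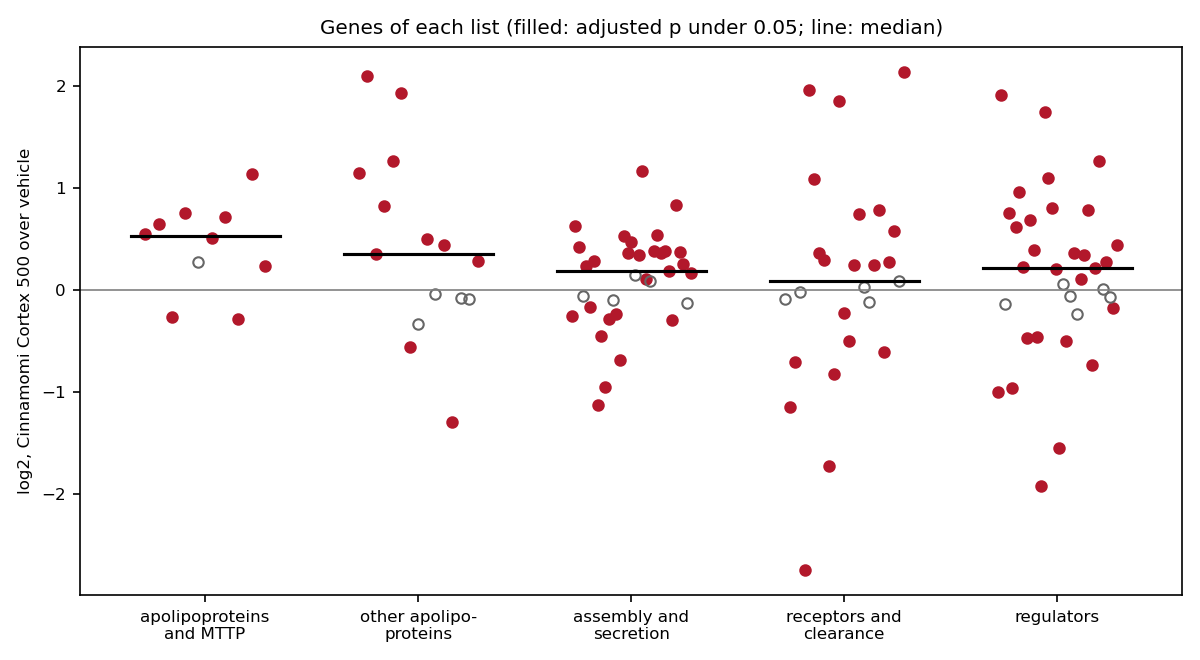
Log2 change at 500 µg/mL of Cinnamomi Cortex over vehicle (vertical) for the genes of 5 lists (across). Each point is a gene, filled where the adjusted p is under 0.05, and lines are list medians. The 10 genes have a median of 0.53, and VLDLR, at 2.14, is the highest of the receptor list. MTTP, at 0.23, changes sign with library totals.

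Markers of liver cells and of other cell types differed from vehicle too. With Cinnamomi Cortex at 500 µg/mL, where 62.7% of all genes were called, 6 of the 10 hepatocyte markers were higher and 2 lower, SERPINA1 by 0.84 and TTR by 0.84 among the higher, and FGG by -0.94 among the lower. Their summed level was 46972 to 48877 CPM with Cinnamomi Cortex at 500 µg/mL and 44638 to 45208 CPM in vehicle. Of 12 markers of other cell types 8 were tested, with 4 higher and 2 lower, and their sum was 2806 to 3227 CPM and 1487 to 1645 CPM in the same order (sums by library totals). LYZ averaged 3158 ± 236 CPM against 1223 ± 72.7 CPM in vehicle, KRT19 96.9 ± 3.11 against 42.6 ± 2.80 CPM and CD68 142 ± 10.6 against 58.3 ± 1.77 CPM. The endothelial markers PECAM1 (1.32 and 1.59 CPM) and VWF (0.808 and 0.683 CPM) and the fibroblast marker COL1A1 (0.0909 and 0.357 CPM) were near 0 in Cinnamomi Cortex and in vehicle. The leukocyte marker PTPRC, the fibroblast marker COL3A1 and the islet marker INS had no count in either group. With Samul-tang at 500 µg/mL, 1 hepatocyte marker was higher and 3 lower, beside 7.44% and 6.24% of all genes. Among the lower were ALB (-0.34, adjusted p = 2.72e-04) and TTR (-0.38, adjusted p = 1.72e-05). With Sagunja-tang, 1 was higher and 5 lower, beside 6.76% and 5.52% of all genes, with ALB at -0.26 and TTR at -0.33. The summed hepatocyte markers were 39244 to 42965 CPM with Samul-tang, 40518 to 42634 CPM with Sagunja-tang and 40102 to 43731 CPM with Cnidii Rhizoma, all below the vehicle libraries. So were those of Rehmanniae Radix Preparata (39611 to 44447 CPM) and Astragali Radix (41271 to 44264 CPM) at 500 µg/mL. With all of these extracts at 100 µg/mL the sums also lay below vehicle, the highest being 44364 CPM with Cnidii Rhizoma. Sums of the other markers at 500 µg/mL were 1632 to 1821 CPM with Samul-tang, 1564 to 1884 CPM with Sagunja-tang and 1606 to 1832 CPM with Cnidii Rhizoma. The part of these changes in the results above was not tested.

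Patterns across the 57 libraries are given by Pearson's r of log2 CPM, as descriptions over libraries that share a vehicle and scaling. APOM was most like SLC2A1 (0.948), AHSG (0.941) and GPT2 (0.937). APOE was most like UQCRC1 (0.922), APOA1 like FBXO2 (0.902), APOC1 like S100P (0.889), APOB like ASH1L (0.885), and APOA2 like BBLN (0.875). MTTP (BCAT1, 0.789), APOC2 (DGUOK, 0.769) and APOH (SULT2A1, 0.725) had looser partners. Over the 48 libraries without Cinnamomi Cortex the nearest gene to APOM was TTR (0.743), followed by AHSG (0.739), and the nearest to APOB was BLTP1 (0.877). Among the 10 genes, APOC1 and APOM (0.844) and APOA1 and APOE (0.826) had the highest r, and APOB and APOC3 ran opposite (-0.725). Without Cinnamomi Cortex these values were 0.50, 0.537 and -0.644, and APOC2 and APOC3 were at 0.724.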

How the data were processed

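The deposited table holds expected counts per Ensembl gene, made by the authors from reads on GRCh38. The submitters' processing notes name RSEM 1.3.3, STAR 2.7.3a, Trim Galore 0.6.5 and FastQC 0.11.9. The annotation release is not given in the sources used here. Of 270 columns, 60 were used and 210 belong to other samples. Expected counts (8.58% not whole) were rounded. Positions and exon lengths came from GENCODE 29, in which 57055 of 60675 IDs were found, and promoters from RefSeq (GRCh38.p14). Symbols came from a separate list of current gene names, or from GENCODE 29 where that list held none.

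In R 4.3.3, edgeR 4.0.16 kept 16167 genes (filterByExpr), scaled libraries by TMM and fitted 57 libraries in 1 quasi-likelihood model, each group with its own mean. Tests were two-sided F tests, adjusted by Benjamini-Hochberg over all tested genes within a contrast. Totals of 16.5 to 34.4 M counts per library bound the counting error. The SE of a change is its size divided by the root of F. Palmul-tang, 1 library per dose, was compared with the vehicle mean on log2(CPM + 0.5). Likeness used genes with a mean of at least 2 CPM (log2 CPM, prior count 2).

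The members and lists were chosen with earlier results of these data known. All 10 members are named. From the other lists, up to 4 genes per list by smallest adjusted p are named for Cinnamomi Cortex at 500 µg/mL and up to 2 for each other extract, with 3 genes most like each member. Not every gene that meets the rule is printed.

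Alternatives were RLE size factors, library totals, no filter, DESeq2 1.42.0, only the compared groups, the replicate number as a block, and leaving out libraries. The mean of the 20 µg/mL groups, a fit without any replicate 1 library of set 6, and a pseudocount of 2 were also tried. The APOC2 sum and the length measure were added after the data were seen. The fit was tested on simulated counts, with 50 genes changed at each size in Cnidii Rhizoma at 500 µg/mL. Against vehicle it recovered 17 of 50 at 1.2-fold, 29 at 1.5-fold, 36 at 2-fold and 44 at 3-fold. Of its 131 calls, 5 were false. Small changes were often missed there, so a gene not called is not shown to be unchanged. The changed genes were drawn from all tested genes, so these shares need not hold for the members.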

Additional observations from a re-analysis of the deposited data

Results flagged for a closer look

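The dose trends of Cinnamomi Cortex and Astragali Radix, extracts of 1 set, differed for 8 genes by the test of the difference in the edgeR model (Cinnamomi Cortex minus Astragali Radix, log2 per 5-fold step of dose). This stands beside 50.9% of all tested genes, so the count by itself says little of this group. APOM differed by 0.66, with trends of 0.48 and -0.17 in that order, so the gene rose with one extract and fell with the other. APOA2 differed by 0.42, APOC1 by 0.39, APOE by 0.32, APOA1 by 0.28 and APOC3 by 0.22, while none of these 5 had a called trend with Astragali Radix. MTTP differed by 0.13, which turned to -0.0026 with library totals, and APOB by -0.094, which was near the threshold.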

How the results depend on the processing

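The counts of called members changed under several alternatives. With no filter on low counts they were 1 for the Cnidii Rhizoma trend, 2 for Rehmanniae Radix Preparata at 500 µg/mL, 2 for the Sagunja-tang trend, 2 for Cnidii Rhizoma minus Rehmanniae Radix Preparata at 500 µg/mL, 1 for Sagunja-tang minus Samul-tang at 500 µg/mL and 1 in the trend, 11 at 100 µg/mL and 9 at 20 µg/mL. Calls over all genes in that fit were 681, 1214, 746, 368, 233 and 250 for the single contrasts, in the same order. Per extract they were 559 to 2783 at 100 µg/mL and 737 to 2844 at 20 µg/mL. Fits of the compared groups alone gave 1 for Cnidii Rhizoma at 500 µg/mL, 0 for Rehmanniae Radix Preparata at 500 µg/mL, 1 for the Sagunja-tang trend, 3 for Samul-tang at 500 µg/mL, 1 for the Samul-tang trend, 0 for Cnidii Rhizoma minus Rehmanniae Radix Preparata and 7 at 20 µg/mL. With the compared groups fitted alone, the calls over all genes were 142 in place of 3353 for Samul-tang at 20 µg/mL, 72 in place of 1597 for its trend, 752 in place of 1904 for Cnidii Rhizoma at 500 µg/mL and 1014 in place of 1985 for Sagunja-tang at 500 µg/mL. They were 1092 for Rehmanniae Radix Preparata at 500 µg/mL, 1479 for Samul-tang at 500 µg/mL and 711 for the Sagunja-tang trend. For Cnidii Rhizoma minus Rehmanniae Radix Preparata at 500 µg/mL they were 19, and at 20 µg/mL 142 to 2560 per extract. Library totals gave 1 member call at 20 µg/mL, beside 438 to 2871 calls over all genes per extract. DESeq2 gave 1 for Sagunja-tang minus Samul-tang at 500 µg/mL, beside 217 over all genes. Astragali Radix at 500 µg/mL had 2 calls against the mean of the 20 µg/mL groups, beside 1290 over all genes. Its trend had 2 without the replicate 1 libraries of set 6, beside 110 over all genes. MTTP reversed with library totals, to -0.044 at 500 µg/mL of Cinnamomi Cortex, -0.071 in its trend and -0.0026 in the trend difference from Astragali Radix, where the median of all genes was lower by 0.28, 0.13 and 0.13. The cause of the other moves was not tested.

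Leaving out 1 library gave 9 to 10 calls for Cinnamomi Cortex at 500 µg/mL, 8 to 10 for its trend, 9 to 10 for its difference from Astragali Radix and 7 to 9 for that of the trends. It gave 2 to 6 for Samul-tang at 500 µg/mL and 2 to 6 for its trend, 0 to 3 for Sagunja-tang at 500 µg/mL, 1 to 2 for Cnidii Rhizoma at 500 µg/mL and 0 to 1 for its trend. It gave 0 to 1 for Rehmanniae Radix Preparata at 500 µg/mL, 0 to 1 for Cnidii Rhizoma minus Rehmanniae Radix Preparata, 0 to 1 for Sagunja-tang minus Samul-tang at 500 µg/mL and 0 to 1 in the trend, 2 to 7 at 100 µg/mL and 0 to 5 at 20 µg/mL. Calls over all genes in these fits are not given here, so the ranges describe stability only.

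The replicate number was tried as a block. Same-numbered libraries of a set had correlations of their deviations of -0.12 to 0.18, with medians of 0.01 to 0.03, and only 7 of 135 such pairs were over 0.1, so the numbers were not taken to pair samples. The block within a set gave 1 call for Astragali Radix at 500 µg/mL and 1 for Sagunja-tang minus Samul-tang at 500 µg/mL, beside 731 and 229 over all genes. The block over all libraries moved no count of members by over 1.5 times.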

Other observations

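Replicate libraries were not alike in tightness. The coefficient of variation over the 3 libraries of a group had a median of 2.85% for MTTP and 9.22% for APOC2, and reached 27.1% for APOC2. Across all 60 libraries the highest level was 3.11 times the lowest for APOM, 2.90 times for APOC2 and APOC3, and 1.38 times for APOH. APOA4 and VLDLR, low in vehicle at 2.19 and 3.28 CPM, had SDs of 0.281 and 0.398 CPM there.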
